A study of Mus musculus with 405 samples.

Results

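Cadherins, protocadherins and Cadm proteins are surface molecules by which cells hold on to each other. The genes described here were chosen by symbol: classical and related cadherins (Cdh and a number), all genes whose symbol starts with Pcdh, and the cell adhesion molecules Cadm1 to Cadm4. The screen table held 87 of them among 13304 genes, and the pyraclostrobin count table held 98 among 23893 genes; 87 were in both. Of the 87 in the screen, 29 were single genes (2 type I and 11 type II classical cadherins, the atypical cadherin Cdh13, 9 delta protocadherins, the other non-clustered protocadherins Pcdh15 and Pcdh20, and 4 Cadm genes). The other 58 belonged to the clustered protocadherins, with 15 alpha, 21 beta and 22 gamma genes.

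The study asked which environmental chemicals change gene expression in cultured mouse cortical neurons in like ways. Cultures were made from embryos of C57BL/6J dams and CAST/EiJ sires (CAST x C57BL6 in the labels, embryonic day 15), received an antimitotic that limits dividing cells, and were treated on day 7 in vitro for 24 h before RNA-seq. The screen held 49 vehicle libraries and 344 libraries from 297 chemicals, 282 of which had 1 library each. Topotecan (0.3 µM), a topoisomerase 1 inhibitor, had 32 libraries, and camptothecin (0.3 µM) and irinotecan (10 µM), with the same target, had 1 each. A separate count table held 4 libraries of pyraclostrobin (0.1 µM), a strobilurin fungicide that blocks mitochondrial complex III, and 4 of vehicle (DMSO, by the study's methods). All groups shared the hybrid background and the antimitotic. The labels do not say which libraries came from separate cultures, and those of a group may come from fewer cultures than libraries, so p-values measure the spread between libraries, which may be technical. Bulk RNA cannot tell fewer cells of a type from less RNA per cell.

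Classical cadherins bind like cadherins on the neighbouring cell in the presence of calcium and are tied to actin inside the cell by catenins. Type I members such as Cdh2 (N-cadherin) and Cdh4 (R-cadherin) adhere strongly, and type II members are spread over particular brain nuclei and layers and sort neurons into circuits. Delta protocadherins such as Pcdh10, Pcdh17 and Pcdh19 act in axon outgrowth and synapse formation. The clustered protocadherins lie in tandem arrays on 1 chromosome: each alpha or gamma gene joins its own first exon to constant exons that the cluster shares, and each beta gene is a separate exon, so that a neuron can carry its own combination of isoforms. Cadm proteins, also called SynCAMs, belong to the immunoglobulin superfamily and bridge the synaptic cleft and axon and glia contacts.

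The promoters of 4 single genes are shown because these genes lead the changes described below: Cadm2 had the largest fall under topotecan, and Cadm3, Pcdh19 and Cdh9 were among those that fell under pyraclostrobin. Each run is the 150 bases before the RefSeq start (GRCm38.p6), 5′ to 3′ on the gene's strand, with a GC box (GGGCGG, or CCGCCC on the other strand) in capitals where there is one.
Cadm2, chr16:67620909-67621058, minus strand: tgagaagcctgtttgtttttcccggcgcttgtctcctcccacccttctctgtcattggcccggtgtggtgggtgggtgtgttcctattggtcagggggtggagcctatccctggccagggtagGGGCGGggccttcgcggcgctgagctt
Cadm3, chr1:173367696-173367845, minus strand: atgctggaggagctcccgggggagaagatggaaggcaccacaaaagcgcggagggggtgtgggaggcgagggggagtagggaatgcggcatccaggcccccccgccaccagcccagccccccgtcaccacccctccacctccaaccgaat
Pcdh19, chrX:133688994-133689143, minus strand: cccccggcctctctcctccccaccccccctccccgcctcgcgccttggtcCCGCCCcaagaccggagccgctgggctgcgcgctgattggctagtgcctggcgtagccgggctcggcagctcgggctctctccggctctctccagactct
Cdh9, chr15:16728765-16728914, plus strand: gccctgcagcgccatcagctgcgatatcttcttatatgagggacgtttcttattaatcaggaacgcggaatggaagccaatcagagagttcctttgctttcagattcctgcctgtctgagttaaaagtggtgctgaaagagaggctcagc
Guanine and cytosine made up 62.7% of the Cadm2 run, 68.7% of the Cadm3 run, 74.0% of the Pcdh19 run and 48% of the Cdh9 run. None of the 4 held a TATA box (TATAAA, or TTTATA on the other strand). Promoter windows were matched by symbol for 22 of the 29 single genes, with 25 starts in all; Cadm1, Cdh2, Cdh4, Cdh11, Cdh13, Pcdh1 and Pcdh11x had no entry. In the 250 bases before the start, a GC box was in 10 of the 25 windows (40%) and in 32.7% of all 32851 windows, and a TATA box in 2 of 25 (8.0%) and in 12.4% of all.

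The 8 libraries of the count table held between 2409623 and 7833440 counts. Vehicle libraries 3 and 4 held 7833440 and 7082405 counts, and the other vehicle libraries and all pyraclostrobin libraries at most 2893598, so depth moved in part with the group. Vehicle library 1 stood apart from the other vehicle libraries for several genes below. Neuron markers were present throughout, with summed levels of 6623 to 7229 CPM in vehicle (CPM, counts scaled to a fixed library total after TMM normalisation). Markers of other cells were present too: in vehicle the summed levels were 677 to 1030 CPM for astrocytes, 20.9 to 29.1 CPM for microglia, 93.9 to 194 CPM for the oligodendrocyte lineage, 97.8 to 211 CPM for mural cells and fibroblasts and 20.3 to 44.4 CPM for dividing cells, whereas Pecam1, Cldn5, Tek and Flt1 of the endothelial list stayed under 10 counts in every library.

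In vehicle, 3 of the 4 Cadm genes led the single genes when counts were set against exonic length, as RPKM (CPM per kilobase of all annotated exons, n = 4). Cadm4 (mm9 chr7, 25267042 to 25289558) stood at 179.7 ± 48.3 RPKM (SD), Cadm3 (chr1, 175264385 to 175297826) at 123.4 ± 10.7, and Cadm2 (chr16, 66655666 to 67621153) at 65.7 ± 16.3. The ranges of Cadm4, Cadm3 and Cadm2 did not overlap in that order. Below Cadm2, no neighbours in the order of all single and beta genes differed beyond their spread. The delta protocadherins Pcdh9 at 58.3 ± 19.8, Pcdh7 at 48.3 ± 20.1 and Pcdh8, an activity-regulated member, at 43.9 ± 7.7 RPKM came next, and Cadm1 (chr9, 47338256 to 47665720) stood below them at 38.7 ± 5.2 RPKM. Among the classical cadherins, Cdh11 (22.7 ± 2.8 RPKM) and Cdh2 (22.5 ± 2.7 RPKM) were the highest, and Cdh4 stood at 8.1 ± 1.4 RPKM. The lowest single genes that passed the count filter were Cdh7 (1.1 ± 0.4 RPKM) and Pcdh15 (0.46 ± 0.17 RPKM), the latter known for the tip links of hair cells. Beta protocadherins that passed the filter lay between 1.36 and 9.02 RPKM. The 11 members that did not pass the filter, Cdh1, Cdh3, Cdh5, Cdh15, Cdh16, Cdh17, Cdh19, Cdh23, Cdh26, Pcdh12 and Pcdhb1, had at most 8 counts in any library. They include E-cadherin (Cdh1) and VE-cadherin (Cdh5), the defining cadherins of epithelium and endothelium.

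Topotecan traps topoisomerase 1, an enzyme that relaxes DNA ahead of the RNA polymerase. In the screen, 57 of the 87 members were lower with topotecan than with vehicle and 8 were higher (limma, adjusted p under 0.05), whereas 45.8% of all 13304 genes were called, 20.9% lower and 24.9% higher. Of the 57 lower members, 15 were alpha and 21 were gamma genes. Genes within either cluster share exons and are not separate measurements. Of the single genes, 21 were lower, 5 higher and 3 not called, with a median log2 difference of −0.31 against 0.03 over all genes. Values are the authors' normalised deviations on a log2 scale, so they compare samples and hold no levels. For 7 single genes every topotecan library lay below every vehicle library, a pattern seen in 1.01% of all genes, and for no member did every topotecan library lie above.

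The largest fall was that of Cadm2 (SynCAM2), with deviations from −5.21 to −1.73 (median −2.76) over the 32 topotecan libraries and from −0.57 to 0.73 (median −0.08) over the 49 vehicle libraries. The groups did not overlap, and the log2 difference was −2.77 (SE 0.11, limma adjusted p = 1.26e-36), or 6.83-fold lower. Cdh13 (T-cadherin), which is held in the membrane by a lipid anchor and lacks the catenin-binding tail, lay between −3.44 and −0.78 (median −1.75) with topotecan and between −0.36 and 0.74 (median 0.14) with vehicle. Its difference was −2.05 (SE 0.11, adjusted p = 7.68e-30). Among the delta protocadherins, Pcdh9 ranged from −2.23 to −1.07 (median −1.80) with topotecan and from −0.54 to 0.72 (median −0.02) with vehicle, a difference of −1.70 (SE 0.06, adjusted p = 1.63e-38). X-linked Pcdh11x ranged from −3.45 to −1.02 with topotecan and from −0.65 to 1.18 with vehicle (difference −1.84, SE 0.09). Pcdh7 ranged from −1.66 to −0.67 and from −0.39 to 0.67 (difference −1.16, SE 0.05). The groups were apart for all 3 of these protocadherins, as they were for Pcdh15 (difference −1.85, SE 0.10) and for the type II cadherin Cdh8 (−1.74 to −0.51 with topotecan, −0.28 to 0.46 with vehicle, difference −1.20, SE 0.05).

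Cdh12, another type II cadherin, fell too (−1.59, SE 0.11, adjusted p = 2.38e-21), but its vehicle libraries were spread from −1.05 to 1.67 and overlapped the topotecan range of −2.79 to −0.46. Smaller falls were seen for Cdh10 (−0.54), Cadm1 (−0.45), Cdh11 (−0.45), Cdh2 (−0.36, SE 0.04, adjusted p = 6.32e-14), Pcdh17 (−0.35), Pcdh19 (−0.15), Pcdh10 (−0.15) and Cadm3 (−0.12). Cdh2 libraries overlapped, at −0.88 to −0.05 (median −0.31) with topotecan and −0.22 to 0.41 (median 0.04) with vehicle. Cdh4 did not pass the test (−0.12, SE 0.06, 95% interval −0.24 to −0.00162, adjusted p = 0.0976), with medians of −0.06 and 0.04. Of the 5 single genes that were higher, Pcdh18, a delta protocadherin, had the largest rise, from a vehicle median of −0.04 to 0.48 (difference 0.51, SE 0.05, adjusted p = 1.14e-13, 1.42-fold). Cadm4 rose by 0.11 (SE 0.03, adjusted p = 0.000358).

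**Figure D1:**
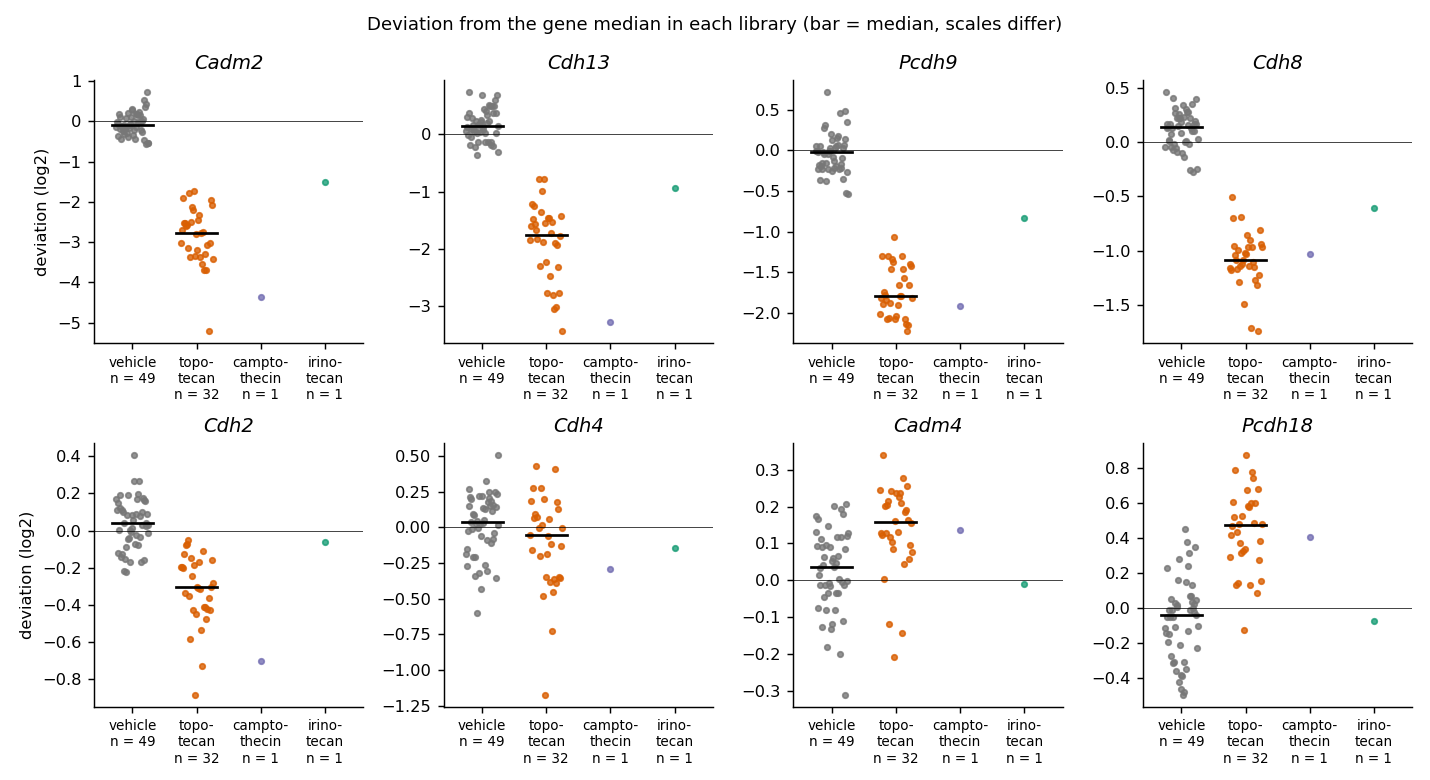
Deviation from the gene's median (log2, y axis, scales differ) of 8 adhesion genes in each vehicle (n = 49), topotecan (n = 32), camptothecin (n = 1) and irinotecan (n = 1) library; bars are medians. Topotecan libraries of Cadm2, Cdh13, Pcdh9 and Cdh8 lie below every vehicle library, those of Cdh2, Cdh4 and Cadm4 overlap vehicle, and Pcdh18 is shifted upwards.

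The size of the difference followed the genomic span of the gene. Across the 29 single genes, span (mm9 gene models) and the topotecan difference had a Spearman correlation of −0.80, given as a description across genes, which share the same libraries. Of the 19 single genes of at least 100 kb, 16 were lower, none was higher by the limma test (0 at an adjusted p under 0.05) and the median was −0.45; of the 10 shorter ones, 5 were lower and 5 higher. Other genes of at least 100 kb were lower in 1289 of 1973 (65.3%), with a median of −0.23, and other shorter genes were lower in 1391 of 11006. Of the 9 single genes of at least 400 kb, 8 were lower with a median of −1.70, and of the 281 other genes of that span 260 were lower with a median of −0.88. Adhesion genes of great span thus moved in the direction of other genes of that span, at medians further from 0, and no test was made of that gap. Exceptions stood at both ends: Cdh4, of 457 kb, was not called, and Cdh18, of 925 kb, differed by only −0.27 (adjusted p = 0.0157), whereas Pcdh20, of 6.65 kb, fell by 0.31. The exons of Cdh4 overlap those of Gm10711 on the same strand by 31 bases, and those of Cadm2, Cdh8, Cdh24 and Pcdh19 overlap a gene on the opposite strand; those of Pcdh15 overlap a pseudogene by 225 bases. Whether the counting used the strand is not given in the sources used here.

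**Figure D2:**
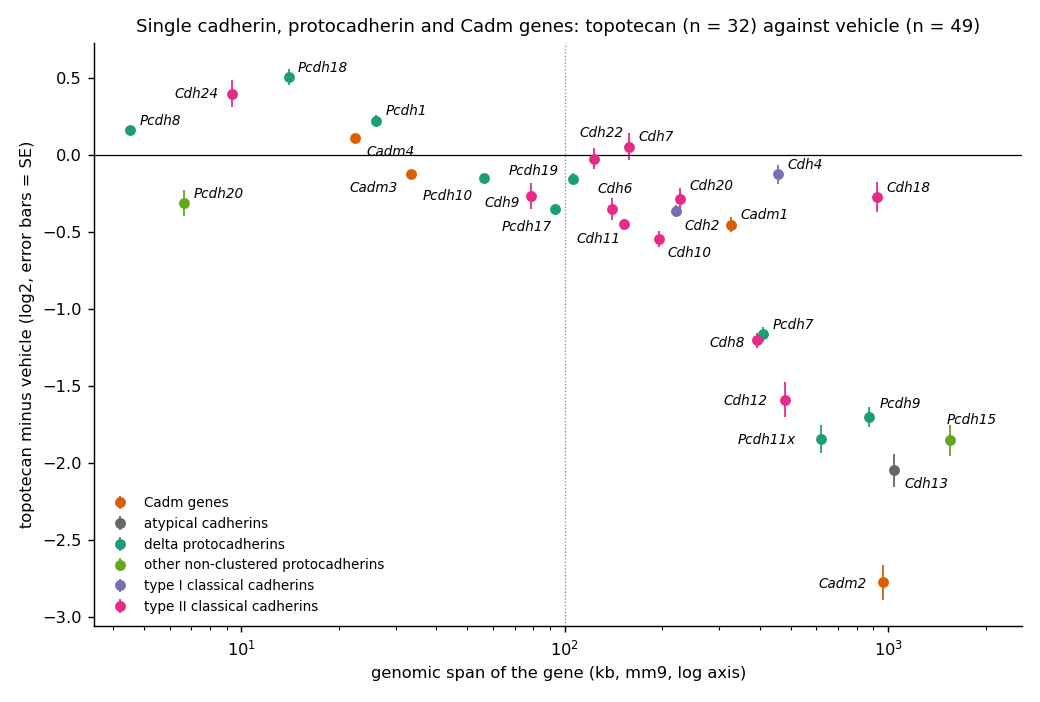
Topotecan minus vehicle (log2, y axis, bars are SE) against genomic span (kb, mm9, log axis) for the 29 single adhesion genes, coloured by family; the dotted line marks 100 kb. Genes left of the line lie between −0.35 and 0.51, and 8 genes of over 390 kb lie below −1, with Cdh4 and Cdh18 near 0.

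The clustered protocadherins moved less. All 15 alpha genes were lower with topotecan (−0.33 to −0.19), with Pcdha1 at −0.32 (SE 0.03, adjusted p = 7.37e-19). Of the 22 gamma genes, 21 were lower by 0.07 or less, with Pcdhga1 at −0.06 (adjusted p = 0.000507), and Pcdhgc3 was not called (−0.02, adjusted p = 0.266). None of the 21 beta genes was lower (limma: 0 at an unadjusted p under 0.05 as well), and 3 were higher: Pcdhb10 (0.27), Pcdhb4 (0.23) and Pcdhb5 (0.11, adjusted p = 0.0498). The alpha and gamma genes are not separate measurements, as the counts show below. Cell markers moved with topotecan as well: 7 of 9 neuron markers were lower and 2 higher, 5 of 7 astrocyte markers were lower and 1 higher, all 4 dividing cell markers were lower, and 1 of 4 microglia, 1 of 5 oligodendrocyte lineage (1 higher), 1 of 1 endothelial and 1 of 8 mural and fibroblast markers were lower. Their part in the result was not tested.

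Camptothecin and irinotecan had 1 library each, so no test could be made of either. With camptothecin, 13 of the 19 single genes of at least 100 kb lay below the whole vehicle range, as did 4 of the 10 shorter ones, and Pcdh8 lay above it; with irinotecan the count was 6 of 19 and 0 of 10. Of all genes, 8.64% lay below and 6.01% above the range with camptothecin, and 3.05% below and 1.01% above with irinotecan. Cadm2 stood at −4.35 with camptothecin and −1.50 with irinotecan, Cdh13 at −3.27 and −0.94, and Pcdh9 at −1.92 and −0.83. These genes were low in both libraries. Cdh2 stood at −0.70 and −0.06, Cdh4 at −0.29 and −0.14, and Pcdh18 at 0.41 and −0.07. The 6 genes below the vehicle range with irinotecan were Cadm2, Cdh13, Cdh8, Pcdh9, Pcdh11x and Pcdh15, all of them among the 7 whose topotecan libraries did not overlap vehicle. The concentrations differ, 0.3 µM for camptothecin and 10 µM for irinotecan, and the 2 were not compared.

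Pyraclostrobin gave another pattern. In the count table, 87 members passed the filter of at least 10 counts in at least 4 libraries, of which 30 were lower, 2 higher and 55 not called (edgeR, adjusted p under 0.05), whereas 34.9% of the 12324 genes tested were called, 16.4% lower and 18.5% higher. Of the 30 lower members, 14 were alpha genes, which share exons and are not separate measurements. Of the single genes 10 were lower, 2 higher and 17 not called, with a median log2 difference of −0.51 against −0.00 over all genes tested. Without vehicle library 1, 18 of 28 single genes were lower and 2 higher, whereas 22.9% of all genes tested were then lower and 24.4% higher. With any other single library left out, 8 to 11 single genes were lower and 2 higher. Shares of all genes were not worked out for those settings. In 35 members the 2 groups did not overlap. These were 11 of the 29 single genes and 24 of the 58 clustered genes, 14 of the latter being alpha genes, which share exons. Over all genes tested the groups did not overlap in 17% with pyraclostrobin lower and 18.1% with it higher. The share of single genes was thus near that of all genes (4333 of 12324). Span and difference were not related across the 29 single genes (Spearman −0.02, a description). Of the 19 single genes of at least 100 kb, 7 were lower and 2 higher, next to 20.7% and 19.8% of other genes of that span. Of the 9 of at least 400 kb, 3 were lower and 1 higher, with a median of −0.51. Among the 263 other genes of at least 400 kb, 35.7% were lower and 9.51% higher, with a median of −0.43.

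Both type I cadherins rose. Cdh2, the main cadherin of neuronal junctions and early synapses, stood at 303.8, 273.3, 258.8 and 258.2 CPM in pyraclostrobin libraries 1 to 4 and at 149.6, 197.4, 190.0 and 189.9 CPM in vehicle libraries 1 to 4. Every pyraclostrobin library was above every vehicle library, a 1.51-fold difference (log2 0.59, SE 0.12, adjusted p = 0.00326). Cdh4 stood at 114.7, 97.2, 104.8 and 96.7 CPM with pyraclostrobin and at 72.1, 51.98, 60.03 and 50.4 CPM with vehicle, 1.77-fold higher (log2 0.82, SE 0.14, adjusted p = 0.00116) and again without overlap.

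Type II cadherins went the other way or did not pass the test: 4 of 11 were lower and none was higher (edgeR: 0, and 0 at an unadjusted p under 0.05). Cdh7 fell from 5.33, 8.15, 13.03 and 12.56 CPM in vehicle to 1.6, 2.6, 2.3 and 2.8 CPM, 4.34-fold lower (log2 −2.12, SE 0.36, adjusted p = 0.00106). Cdh9, known for synapses between hippocampal mossy fibres and their targets, fell from 8.9, 11.6, 11.4 and 11.4 CPM to 2.0, 3.7, 3.0 and 4.3 CPM, 3.31-fold lower (log2 −1.73, SE 0.27, adjusted p = 0.000641). Neither overlapped between groups, and both were low genes in all libraries. The 4 vehicle libraries alone carried them past the count filter, with 15 to 97 counts for Cdh7 and 25 to 85 for Cdh9. Their lack of overlap is therefore no separate support. Cdh22 fell 1.93-fold (log2 −0.95, SE 0.27, adjusted p = 0.0181), from 36.2, 17.1, 20.4 and 25.3 CPM to 8.6, 15.3, 15.1 and 11.8 CPM, with libraries of the 2 groups close to each other. Cdh8 fell 1.82-fold, from 83.9, 97.4, 103.1 and 110.7 CPM to 67.5, 52.3, 36.7 and 60.9 CPM (log2 −0.86, SE 0.18, adjusted p = 0.00365). Cdh11, a cadherin also made by mesenchymal cells, did not pass the test (log2 −0.04, adjusted p = 0.842). Cdh13 was 1.43-fold lower (log2 −0.51, SE 0.15, adjusted p = 0.0181), a call that was lost without vehicle library 3 (adjusted p = 0.0534) or vehicle library 4 (adjusted p = 0.0509).

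Of the delta protocadherins, 2 of 9 were lower. Pcdh19, the X-linked gene mutated in an epilepsy of girls, stood at 62.0, 96.8, 87.4 and 106.5 CPM with pyraclostrobin and at 143.5, 285.9, 242.9 and 267.8 CPM with vehicle, 2.66-fold lower (log2 −1.41, SE 0.22, adjusted p = 0.000721). Pcdh11x stood at 25.4, 71.8, 50.3 and 74.3 CPM and at 81.4, 206.4, 171.1 and 199.9 CPM, 2.97-fold lower (log2 −1.57, SE 0.34, adjusted p = 0.00451). For both, library 1 was the lowest of its group in either group. Pcdh7 showed the same feature in vehicle more strongly: 113.3 CPM in library 1 and 376.3, 345.1 and 363.4 CPM in the others, against 181.8, 249.8, 266.0 and 268.8 CPM with pyraclostrobin. Its difference of −0.31 did not pass the test (adjusted p = 0.469), nor did those of Pcdh9 (−0.60, adjusted p = 0.164), Pcdh17 (−0.50, adjusted p = 0.234) and Pcdh10 (−0.24, adjusted p = 0.376). Without vehicle library 1 all 4 were lower, at −0.58 for Pcdh7 (adjusted p = 0.00302), −0.81 for Pcdh9 (adjusted p = 0.0170), −0.76 for Pcdh17 (adjusted p = 0.00259) and −0.42 for Pcdh10 (adjusted p = 0.0013), and 7 of 9 delta protocadherins were called lower. With library 1 of both groups left out, 7 of 9 were called lower too, and over all members 42 were lower and 3 higher, whereas 25.3% of all genes tested were then lower and 25.4% higher. Of those 42 lower members, 14 were alpha genes, which share exons. Without vehicle library 1 alone, 22.9% of all genes tested were lower. Leaving out library 1 of both groups was chosen after the data had been seen.

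Cadm genes were lower in 3 of 4. Cadm3 (SynCAM3), found mainly in neurons, stood at 399.8, 430.3, 365.1 and 416.6 CPM with pyraclostrobin and at 672.6, 805.3, 817.5 and 790.5 CPM with vehicle, 1.91-fold lower (log2 −0.93, SE 0.11, adjusted p = 0.000109), with the groups far apart. Cadm2 stood at 323.7, 377.6, 316.3 and 426.8 CPM and at 408.6, 763.0, 691.3 and 713.6 CPM (1.78-fold lower, log2 −0.83, SE 0.19, adjusted p = 0.00527); its vehicle library 1 lay below pyraclostrobin library 4. Cadm4, which binds Cadm3 across axon and glia contacts, stood at 291.3, 247.9, 217.2 and 263.7 CPM and at 542.9, 334.0, 357.3 and 319.0 CPM (1.52-fold lower, log2 −0.60, SE 0.18, adjusted p = 0.0203). Cadm1 did not pass the test (log2 −0.16, adjusted p = 0.368).

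**Figure D3:**
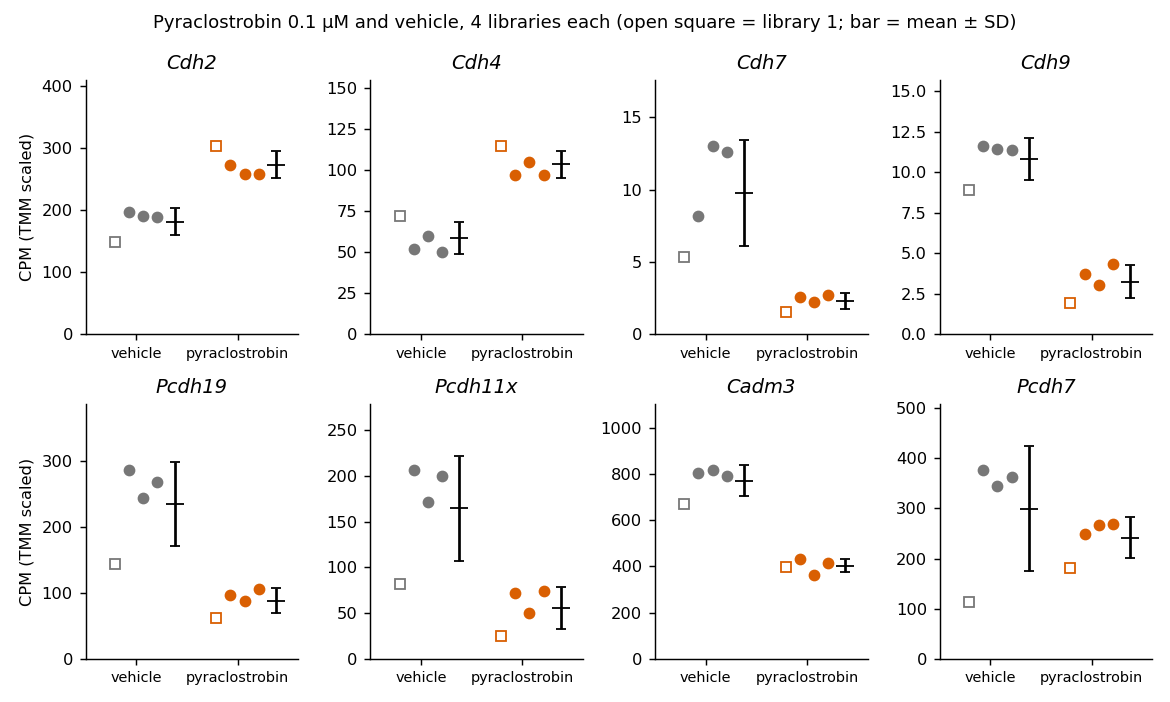
CPM (y axis from 0, scales differ) of 8 adhesion genes in the 4 vehicle and 4 pyraclostrobin libraries; open squares are library 1, and the bars beside the points are mean ± SD. Cdh2 and Cdh4 are higher with pyraclostrobin, Cdh7, Cdh9, Pcdh19, Pcdh11x and Cadm3 lower, and vehicle library 1 of Pcdh7 lies at 113.3 CPM, far under the other vehicle libraries.

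Markers of several cell types moved with pyraclostrobin. Neuron markers summed to 2704 to 3667 CPM, under the vehicle range of 6623 to 7229 CPM, with 7 of 9 lower. Astrocyte markers summed to 1018 to 3413 CPM (5 of 7 higher, with library 1 the highest in both groups), microglia markers to 71.0 to 126 CPM (5 of 5 tested higher), oligodendrocyte lineage markers to 189 to 304 CPM (3 of 5 higher), endothelial markers to 14.6 to 23.01 CPM against 4.83 to 9.95 CPM (1 of 1 tested higher), mural and fibroblast markers to 1199 to 1663 CPM (6 of 7 higher) and dividing cell markers to 84.1 to 167 CPM (4 of 4 higher). Their part in the changes of the adhesion genes was not tested.

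The clustered protocadherins split by cluster. All alpha genes but Pcdha4-g were lower with pyraclostrobin (14 of 15), 6 of 21 beta genes were lower, and of the 22 gamma genes edgeR called 0, with 1 at an unadjusted p under 0.05 and 1 called by DESeq2, which was Pcdhgc3. Counts of the alpha genes were near copies of each other: in vehicle library 3, Pcdha4-g had 1027 counts, while the median of the cluster was 4351 and its highest gene, Pcdhac2, had 5124. In that library gamma genes lay between 5110 and 6331 counts with a median of 5227. Genes of the alpha cluster share constant exons, as do those of the gamma cluster, so the alpha genes other than Pcdha4-g amount to about 1 measurement and the gamma genes to about another; beta genes share no exons.

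Pcdha1 stood at 262.1, 403.4, 358.7 and 396.1 CPM with pyraclostrobin and at 606.1, 649.0, 584.5 and 597.4 CPM with vehicle (log2 −0.78, SE 0.14, adjusted p = 0.00136), with no overlap. The 3 alpha genes with the largest falls, Pcdhac1, Pcdha11 and Pcdha8, lay at −0.79 to −0.78, each 1.72-fold lower. Pcdhga1, by contrast, stood at 753.5, 677.5, 737.4 and 727.4 CPM and at 800.1, 729.3, 701.8 and 713.9 CPM, and did not pass the test (log2 −0.02, adjusted p = 0.884). Beta genes rest on few counts: Pcdhb19 had 27 to 36 counts in the pyraclostrobin libraries and 39 to 177 in vehicle (log2 −0.80, SE 0.22, adjusted p = 0.0156), Pcdhb12 fell by 0.76 on the log2 scale (adjusted p = 0.0119) and Pcdhb13 by 0.71 (adjusted p = 0.0332). Pcdhb13 lost its call in 6 of the 8 settings that left out a library. The number of beta genes called lower ranged from 3 of 21 without vehicle library 4 to 12 of 21 without vehicle library 1. Without vehicle library 1, 22.9% of all genes tested were lower, next to 16.4% with all libraries. The share of all genes without vehicle library 4 was not worked out.

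Pcdhgc3 and Pcdhac2 are C-type genes, which differ in sequence from the other genes of their clusters and are widely expressed. Pcdhgc3 stood at 1137.7, 944.4, 1028.0 and 1012.8 CPM with pyraclostrobin and at 890.4, 873.6, 850.2 and 866.5 CPM with vehicle (log2 0.25, edgeR adjusted p = 0.0611); the groups did not overlap, and the call was made without vehicle library 1 (adjusted p = 0.0251), without library 1 of both groups (adjusted p = 0.00582) and by DESeq2 (adjusted p = 0.0284). With any other single library left out, edgeR did not call it (adjusted p 0.0963 to 0.190). Nor did edgeR call it with other size factors (adjusted p = 0.0670) or with no filter (adjusted p = 0.335). To set aside the shared exons, the CPM of the lowest gene of the cluster was subtracted, a quantity formed after the counts had been seen. The excess of Pcdhgc3 was 405.6, 288.6, 313.7 and 301.4 CPM with pyraclostrobin and 100.6, 162.9, 164.0 and 170.8 CPM with vehicle. Every pyraclostrobin library lay above every vehicle library. The zero of this quantity is set by the subtraction, so no fold and no test is given. The excess of Pcdhac2, Pcdha4-g left out, was 56.6, 60.9, 54.5 and 81.0 CPM against 39.4, 117.5, 120.5 and 121.0 CPM, and the groups overlapped.

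**Figure D4:**
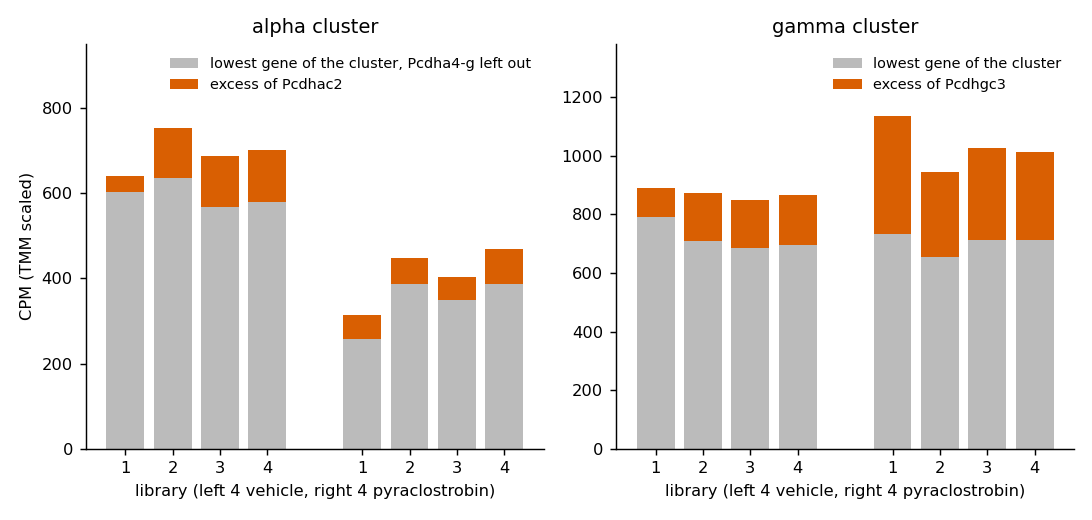
CPM (y axis) in the 4 vehicle and 4 pyraclostrobin libraries of the lowest gene of the alpha cluster (Pcdha4-g left out) and of the gamma cluster (grey), with the excess of Pcdhac2 or Pcdhgc3 on top (orange). The grey alpha bars are lower with pyraclostrobin, the grey gamma bars are not, and the orange Pcdhgc3 part is larger in each pyraclostrobin library than in any vehicle library.

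From the screen, 10 inhibitors of mitochondrial complex I or III were taken as a set chosen by target; these complexes pass electrons along the inner membrane. They were fenpyroximate and pyridaben (0.1 µM each), rotenone and tebufenpyrad (0.01 µM each) for complex I, and azoxystrobin and pyraclostrobin (0.1 µM each), fluoxastrobin (1 µM), and famoxadone, fenamidone and trifloxystrobin (10 µM each) for complex III, in 14 libraries. Each chemical was taken as the median of its libraries and the 10 were set against the 284 other chemicals, topoisomerase 1 inhibitors left out. Bifenazate and cyazofamid (10 µM, 1 library each), which also act on complex III, were among the others. Of the 87 members 39 were lower and 1 higher (limma), whereas 26.6% of all genes were called, 16.8% lower and 9.80% higher; the median difference was −0.16 over the members and −0.00 over all genes. With bifenazate and cyazofamid counted as inhibitors, a setting added after the data had been seen, 37 members were lower and 1 higher. The share of all genes called was not worked out for that setting, so its count says nothing particular about the members. Of the 39 lower members in the main comparison, 14 were alpha genes, which share exons and are not separate measurements. Among single genes 15 of 29 were lower and none was higher (0 at an unadjusted p under 0.05 too). No member, and no gene of the table, separated the 2 sets of chemicals without overlap (0 of 13304).

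The largest differences were those of Pcdh11x (−0.75, SE 0.10, adjusted p = 7.37e-12), Cdh22 (−0.72, SE 0.11), Cdh7 (−0.58, SE 0.13), Pcdh19 (−0.56, SE 0.07, adjusted p = 1.07e-12), Cdh9 (−0.55, SE 0.12) and Pcdh15 (−0.53, SE 0.11). Inhibitors differed widely among themselves. Pcdh11x stood at −1.79 with pyraclostrobin, −1.79 with trifloxystrobin, −1.60 with fenamidone, −1.10 with fenpyroximate, −0.97 with famoxadone, −0.62 with pyridaben, −0.38 with tebufenpyrad, −0.29 with rotenone, −0.10 with fluoxastrobin and 0.10 with azoxystrobin, while the median over other chemicals was −0.09. Pcdh19 stood lowest with fenpyroximate (−1.28) and pyraclostrobin (−1.22) and highest with azoxystrobin (−0.02). All 10 lay under the median of the other chemicals for Pcdh19, Cdh22 and Cadm3. The difference of Cadm3 was −0.25 (SE 0.03, adjusted p = 3.20e-12), with values from −0.53 with trifloxystrobin to −0.04 with tebufenpyrad. Doses differed between the chemicals, from 0.01 to 10 µM, and no pair of chemicals was compared.

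Pcdh17 (−0.34), Pcdh9 (−0.32), Cdh13 (−0.28), Cdh8 (−0.22) and Cadm1 (−0.21) were lower as well. Cdh2 did not pass the test (0.08, 95% interval −0.01 to 0.16, adjusted p = 0.193), although all 10 inhibitors had values above 0, from 0.01 with trifloxystrobin to 0.32 with fenpyroximate, next to a median of 0.05 over the other chemicals. Neither did Cdh4 (0.00, 95% interval −0.14 to 0.15, adjusted p = 0.987), Cdh11 (0.01), Cadm2 (−0.11, adjusted p = 0.300), Cadm4 (−0.09, adjusted p = 0.114), Pcdh7 (−0.09) and Pcdh10 (−0.06). Pyraclostrobin library 1 of the count table is also the screen's only pyraclostrobin library. Its Cdh4 deviation in the screen was 0.04 and its Cdh2 deviation 0.14, whereas the count table gave log2 differences of 0.82 and 0.59 from vehicle.

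The clusters split in the screen too. With the inhibitors 14 of 15 alpha genes were lower (Pcdha1 −0.28, SE 0.03, adjusted p = 7.08e-15), 10 of 21 beta genes were lower, and of the gamma genes 1 of 22 was called, Pcdhgc3, which was higher (0.09, SE 0.02, adjusted p = 0.00109), with Pcdhga1 at 0.02 (adjusted p = 0.509). Set against the vehicle libraries instead of the other chemicals, the 14 inhibitor libraries gave 44 members lower and 21 higher, next to 20.4% of all genes lower and 13.6% higher. These libraries came from 10 chemicals, and repeat libraries of a chemical were counted as separate in this fit. All 21 of the higher members were gamma genes, with differences of 0.06 to 0.11, and thus overlapping measurements. Of the 44 lower members, 14 were alpha genes, which overlap in the same way. Over the 294 chemicals other than topoisomerase 1 inhibitors, a gamma gene lay above the vehicle range with a median of 38 and below it with 5. For all genes the medians were 4 and 5, so a rise of gamma genes against vehicle was not particular to the inhibitors. Pcdhgc3 was above 0 (the gene's median over the screen) with 9 of the 10 inhibitors, up to 0.19 with fenamidone, and at −0.01 with azoxystrobin. It lay above the vehicle range with 26 of the 294 chemicals and below it with 7. High values of Pcdhgc3 were thus not particular to the inhibitors. Between the 6 complex III and the 4 complex I inhibitors limma called 0 of 13304 genes, with 507 at an unadjusted p under 0.05, among them 2 members (smallest adjusted p of a member 0.999). Neuron markers were lower in 8 of 9 with the inhibitors, and higher were 5 of 7 astrocyte, 5 of 8 mural and fibroblast, 1 of 5 oligodendrocyte lineage, 1 of 4 dividing cell, 0 of 4 microglia and 0 of 1 endothelial markers; their part in the result was not tested.

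**Figure D5:**
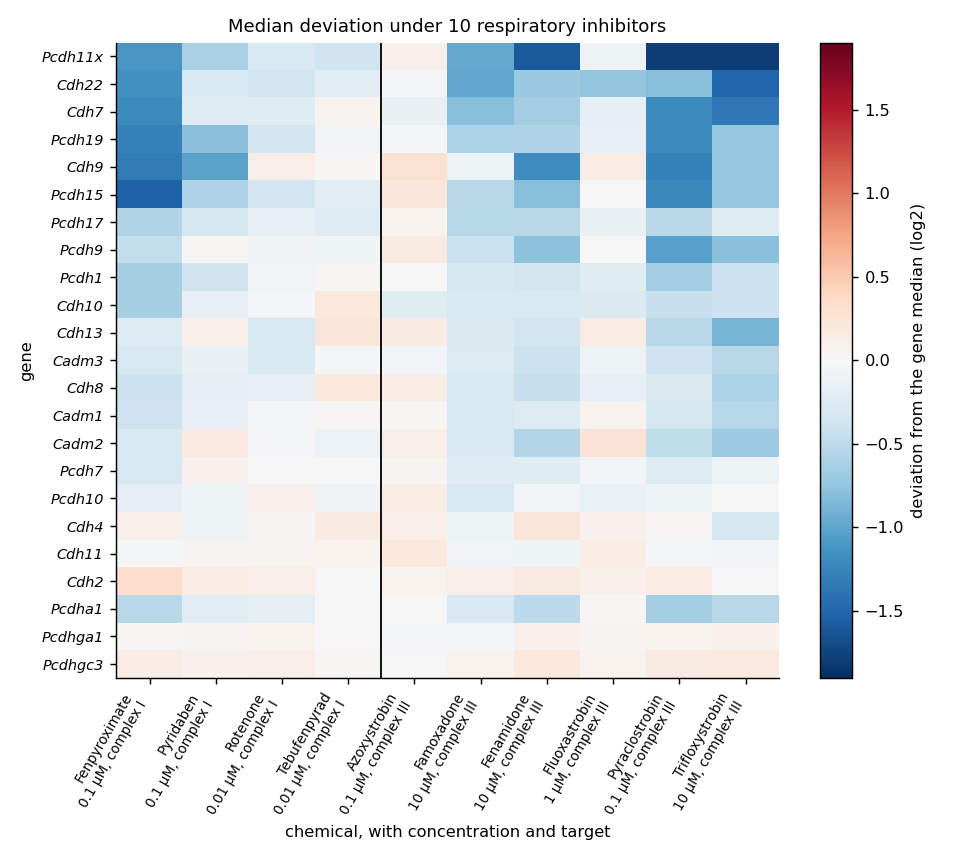
Median deviation (log2, colour) of 23 adhesion genes (rows) under 6 complex III and 4 complex I inhibitors (columns, with concentrations; the line parts the targets). Pcdh11x, Cdh22, Cdh7, Pcdh19, Cdh9 and Pcdh15 reach their lowest values under fenpyroximate, pyraclostrobin or trifloxystrobin, and the azoxystrobin column is pale throughout.

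Of 30 partner genes tested (catenins, nectins, scaffolds, proteases and regulators of the clusters), 15 were lower and 5 higher with topotecan, next to the 20.9% and 24.9% of all genes given above. With pyraclostrobin 6 were lower and 6 higher (20% each), near the 16.4% and 18.5% of all genes. With the respiratory inhibitors 5 were lower (16.7%, the share of all genes being 16.8%) and 8 higher (26.7%, next to 9.80%). The alpha-catenins, which link cadherins to actin, are named here after their values were seen. Ctnna2, the neuronal form, of 1100 kb, fell by 2.47 on the log2 scale with topotecan (SE 0.10) and did not pass the test with pyraclostrobin (−0.32, adjusted p = 0.106). Ctnna1, the form found in most tissues, was not called with topotecan (−0.02, adjusted p = 0.841) and was higher with pyraclostrobin (2.55, SE 0.31, adjusted p = 0.000151) and with the respiratory inhibitors (0.64, SE 0.10). Of the other genes of the cadherin superfamily (Fat, Celsr, Dchs, calsyntenin and desmosomal genes), 6 of 14 were lower and 4 higher with topotecan, 3 of 13 lower and 2 higher with pyraclostrobin, and 5 of 14 lower and 2 higher with the inhibitors; these lists are short, and the pyraclostrobin shares of 23.1% and 15.4% were near those of all genes.

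Of the 294 chemicals other than topoisomerase 1 inhibitors, 111 left all 29 single genes within the vehicle range. The SD over chemicals had a median of 0.233 over the 29 single genes, next to 0.235 over vehicle libraries, and 0.260 over all genes, next to 0.254. A single gene lay beyond the vehicle range with a median of 13 chemicals (2 to 44), and a gene of the whole table with 12. With 6 chemicals at least 10 of the 29 lay beyond it: fenpyroximate, metsulfuron and trifloxystrobin (13 each), pyraclostrobin (12), fenamidone (11) and boscalid (10). All but 1 of these values, with metsulfuron, lay below the range, and over all genes these 6 chemicals put 5.44% to 11.8% below and 2.74% to 6.81% above it. Pcdh1 was beyond it most often, with 44 chemicals. Fenpropathrin, a pyrethroid (10 µM, 1 library), put 5 single genes above the range (Pcdh9, Pcdh11x, Pcdh20, Cdh9 and Cdh10) and 2 below (Cdh4 and Cdh11), whereas 5.32% of all genes lay above and 6.21% below.

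The 5 members with the largest SD over chemicals were Pcdhb21 (0.460), Cdh24 (0.444), Cdh7 (0.429), Cdh18 (0.423) and Pcdhb15 (0.413), all of them low genes in the counts. Pcdhb21 was lowest with amitraz (−1.54) and highest with molinate (1.10), Cdh24 with S-bioallethrin (−1.57) and tri-allate (1.34), Cdh7 with trifloxystrobin (−1.36) and azamethiphos (0.92), Cdh18 with methyl isothiocyanate (−1.49) and resmethrin (1.14), and Pcdhb15 with anilazine (−1.25) and propamocarb hydrochloride (0.99). Each of these was 1 library at 10 µM, with no replicate. The vehicle libraries of the same genes were spread about as widely, with ratios of the 2 SDs from 0.921 to 1.13.

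Some members varied together over the 294 chemicals, given as a description across libraries that share the authors' normalisation. The delta protocadherins Pcdh9 and Pcdh11x had a Pearson correlation of 0.83 (0.88 over the 49 vehicle libraries), Pcdh7 and Pcdh9 of 0.74 (0.71), and Pcdh9 and Cadm2 of 0.70 (0.74), whereas Cdh4 and Pcdh9 varied against each other (−0.37, and −0.48 over vehicle). The median over all 406 pairs of single genes was 0.13. Pairs within the alpha cluster had a median of 0.994 (105 pairs) and within the gamma cluster of 0.988 (231 pairs), while pairs of beta genes, which share no exons, had a median of 0.176 (210 pairs).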

How the data were processed

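RNA-seq libraries of chemically treated mouse cortical cultures were analysed. Per the labels and the study's methods, the authors aligned poly(A) RNA reads to mm9 with TopHat (version not given in the sources used here) over RefSeq models. The screen values deposited are log10 deviations: log10 RPKM, quantile normalised, centred on each gene's median, with culture and sequencing batch removed, so depth is unknown and levels are lost. They were converted to log2 and tested with limma 3.58.1 (variance trend, R 4.3.3). The deposited raw counts were tested with edgeR 4.0.16 (quasi-likelihood, TMM, at least 10 counts in at least 4 libraries); DESeq2 1.42.0 was an alternative. CPM and RPKM were computed from these counts, over exonic lengths of GENCODE vM1 (mm9). P-values were Benjamini-Hochberg adjusted over all genes tested, at 0.05. Alternatives changed the threshold, trend, scaling, filter, tool, gene set, chemicals and libraries.

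Groups came from the labels. The members, gene lists and chemical classes were chosen with earlier results of these data known. Named were called members with an absolute log2 difference of at least 0.5 (at most 12 single genes and 3 per cluster in each direction), 14 genes fixed by name, and the 5 with the largest SD over chemicals. The 6 columns of a sulforaphane and fenamidone count table share 1 header, could not be matched to samples and were not used; the comparison planned for them was not run. Scripts were tested on simulated data.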

Additional observations from a re-analysis of the deposited data

Results flagged for a closer look

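Of 67 groups of 4 or 10 values examined for the named genes, 7 held a value far from the rest by Dixon's ratio of gap to range; chance flags about 1 in 20 groups. For 6 genes this was vehicle library 1 in the count table. The ratio was 0.928 for Pcdh7 (113.3 CPM, others 345.1 to 376.3), 0.912 for Cdh9 (8.88 CPM, others 11.4 to 11.6) and 0.894 for Pcdh17 (68.2 CPM, others 188.3 to 212.2). It was 0.862 for Pcdh10 (211.05 CPM, others 390.4 to 430.6), 0.860 for Cdh2 (149.6 CPM, others 189.9 to 197.4) and 0.842 for Cadm2 (408.6 CPM, others 691.3 to 763.0). The library was the lowest of its group for all 6. Among the 10 respiratory inhibitors, Cdh2 with fenpyroximate stood at 0.32, with the others between 0.01 and 0.17 (ratio 0.469).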

How the results depend on the processing

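The number of members called was within 1.5 times of the reported one under most settings: 61 to 70 for topotecan (reported 65) with a threshold of 0.01, no variance trend, centred libraries or library weights, 24 to 35 for pyraclostrobin (reported 32) with a threshold of 0.01, other size factors, no filter or DESeq2, and 35 to 40 for the inhibitors (reported 40) with a threshold of 0.01, no trend, centring or complex III inhibitors alone. With the 5121 variably expressed genes alone, which hold 20 members, 14 were called for topotecan and 10 for the inhibitors. Inhibitor libraries against vehicle gave 65, and complex I inhibitors alone gave 26. The median number of chemicals beyond the vehicle range (reported 13) was 14 with the first library of each and 26 with the range of vehicle cut to its central 95%. Leaving out 1 library, or library 1 of both groups, gave 27 to 47 members for pyraclostrobin, and leaving out 1 inhibitor 38 to 41.

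Same-numbered pyraclostrobin and vehicle libraries had deviations correlated at 0.375, 0.101, −0.029 and 0.160, and not every library matched its own number best. The numbers were therefore not taken as pairs. Library 1 did stand apart in both groups. Pyraclostrobin library 1 correlated at −0.307 to −0.221 with vehicle libraries 2 to 4. Vehicle library 1 correlated at −0.264 to −0.023 with pyraclostrobin libraries 2 to 4. What sets library 1 apart was not tested. With a replicate block edgeR called 35 members, and Pcdh9 (−0.60, adjusted p = 0.00266) and Pcdhgc3 (0.24, adjusted p = 0.0471) were among them. The named genes kept direction and call in 65 of 65 repeats for topotecan, 286 of 307 for pyraclostrobin and 293 of 314 for the inhibitors. Signs turned for genes near 0, which were not called: Cdh11 with pyraclostrobin ranged from −0.121 to 0.047 with libraries left out (0.009 without library 1 of both groups). With the inhibitors, Cdh4 was −0.016 for complex III alone, −0.028 with bifenazate and cyazofamid among the inhibitors and −0.021 to 0.043 with 1 inhibitor left out, Cdh11 was −0.029 against vehicle, −0.00068 for complex III alone and −0.013 to 0.018 with 1 inhibitor left out, and Cadm2 was 0.0098 for complex I alone. Cdh13 lost its inhibitor call without trifloxystrobin (−0.20, adjusted p = 0.0682), and Cdh7, Cdh8, Cdh13, Pcdh9 and Cadm1 with complex I alone. The causes were not tested. The settings planned for sulforaphane with fenamidone were not run, as its columns could not be matched to samples. Counts under 10 in low members, and the unknown depth of the screen, limit small differences.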
